A study of Homo sapiens with 6 samples.

Results

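A set of 9 genes that sense double-stranded RNA or act on its signal was followed in LNCaP cells after TCTP knockdown: RIGI (listed as DDX58 in older annotation), IFIH1, DHX58, DDX60, MAVS, TBK1, TLR3, EIF2AK2 and ADAR. They were chosen by name, with every probe that the array carries for them, and are 9 of the 18665 genes with a named probe. LNCaP is an androgen-responsive cell line from a lymph node metastasis of prostate cancer. TCTP siRNA at 100 nM was given to 3 samples, and the 3 control samples were given 100 nM siRNA against luciferase (Luc), which has no target in human cells, and total RNA was taken at 72 h. All 6 samples therefore received double-stranded RNA with a transfection reagent, and no array of untransfected cells was analysed here. By the study's methods each group received 1 siRNA sequence, and the siRNAs came from different suppliers, so that the target, the sequence and the supplier cannot be told apart. The series record calls the samples of a group biological replicates. Nothing read here says whether they were transfected on separate days, and the p-values measure the spread between these samples.

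The cytosolic helicases RIG-I (gene RIGI) and MDA5 (IFIH1) bind double-stranded RNA in the cytosol, RIG-I with a preference for short ends that carry a triphosphate and MDA5 for long duplexes. Both signal through the mitochondrial adaptor MAVS to the kinase TBK1, which phosphorylates the factors that switch on interferon genes. TLR3 senses double-stranded RNA in endosomes, PKR (EIF2AK2) halts translation when it binds such RNA, and ADAR edits adenosines within it and so limits its detection. Interferon acts back on these genes, several of which are themselves known interferon-stimulated genes, through promoter elements bound by the ISGF3 complex.

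The promoters of the 3 genes that were called lower and of EIF2AK2, the next in size of change, are shown here. They were picked by their change in these data, so the elements in them test no link to that change. The sequences are those of RefSeq on GRCh38.p14, from 250 bases before to 10 bases after the annotated start, and 8 of the 9 genes matched an entry (DHX58 did not). Capitals mark matches on either strand to the core of the interferon-stimulated response element, GAAANNGAAA, or to the same half-sites spaced by 1 base, GAAANGAAA.
IFIH1 (chr2:162318675-162318934, minus strand): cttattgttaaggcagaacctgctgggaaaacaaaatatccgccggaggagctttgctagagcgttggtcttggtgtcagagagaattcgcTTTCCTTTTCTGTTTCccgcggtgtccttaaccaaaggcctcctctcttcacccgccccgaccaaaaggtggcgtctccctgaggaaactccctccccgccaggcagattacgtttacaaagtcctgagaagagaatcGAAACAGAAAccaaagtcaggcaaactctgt
DDX60 (chr4:168318743-168319002, minus strand): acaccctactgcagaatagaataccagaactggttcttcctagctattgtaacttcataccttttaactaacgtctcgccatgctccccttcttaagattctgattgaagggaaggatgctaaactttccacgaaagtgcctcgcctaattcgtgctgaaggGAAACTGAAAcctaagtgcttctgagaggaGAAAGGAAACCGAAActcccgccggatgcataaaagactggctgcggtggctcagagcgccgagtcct
RIGI (chr9:32526187-32526446, minus strand): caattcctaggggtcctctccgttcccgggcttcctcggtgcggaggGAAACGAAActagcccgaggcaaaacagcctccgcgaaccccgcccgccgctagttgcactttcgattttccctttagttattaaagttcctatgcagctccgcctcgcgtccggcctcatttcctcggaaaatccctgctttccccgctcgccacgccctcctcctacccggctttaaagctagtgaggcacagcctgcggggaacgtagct
EIF2AK2 (chr2:37156971-37157230, minus strand): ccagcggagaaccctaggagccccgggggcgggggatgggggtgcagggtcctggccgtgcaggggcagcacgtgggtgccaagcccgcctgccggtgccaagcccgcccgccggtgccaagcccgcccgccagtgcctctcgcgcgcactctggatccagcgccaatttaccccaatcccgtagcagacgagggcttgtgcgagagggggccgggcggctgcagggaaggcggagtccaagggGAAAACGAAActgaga

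In the IFIH1 promoter an overlapping pair of GAAANNGAAA matches lay on the opposite strand from -159 to -144, and another match lay at -21 to -12, counted from the annotated start. The DDX60 promoter held this motif at -88 to -79 and at -53 to -44, and the latter overlapped a GAAANGAAA match at -58 to -50. The RIGI promoter held only the motif spaced by 1 base, at -203 to -195, and the EIF2AK2 promoter held GAAANNGAAA at -6 to 4. TLR3 had 1 match to GAAANNGAAA at -4 to 6, and MAVS, TBK1 and ADAR had no match to either motif in the 300 bases searched, from 250 before to 50 after the start. Over all 27305 promoters of the same length, 3.65% held GAAANNGAAA, 3.22% held GAAANGAAA and 6.55% held either, compared with 4, 2 and 5 of the 8 matched genes. These matches describe the letters in the window only.

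Each sample was hybridised to 1 Illumina HumanWG-6 v3 array, and values are log2 of its quantile-normalized intensities. A probe counted as detected on an array at a detection p under 0.01. Testing with limma took the brightest probe of each gene among those detected on 3 or more arrays, which gave 8968 genes. Between 12828 and 13741 probes were detected per array. TCTP is encoded by TPT1, whose probe ILMN_1789614 gave log2 values of 12.95, 13.17 and 13.23 after Luc siRNA and 12.25, 12.47 and 12.39 after TCTP siRNA, or 59.6% of the control signal (limma fit of every kept probe, adjusted p = 0.00331). On the brighter probe ILMN_2094718 the TPT1 groups overlapped (log2 change -0.19, adjusted p = 0.433 from limma). All 8 LNCaP markers were detected, whereas 10 of 11 leukocyte, 7 of 8 fibroblast and 4 of 5 endothelial markers were detected on no array, among them PTPRC, COL1A1 and PECAM1. The summed level of the LNCaP markers was 14599 to 15994 after Luc siRNA and 13116 to 14215 after TCTP siRNA, and 0 of the 8 were called by limma (2 lower at an unadjusted p under 0.05, KLK2 and TMPRSS2). The summed level of the fibroblast list was 925 to 997 after Luc siRNA and 628 to 646 after TCTP siRNA, and its detected gene was ACTA2, the smooth muscle actin (log2 change -0.87, adjusted p = 0.00023 from limma). The summed leukocyte level was 563 to 617 after Luc siRNA and 588 to 618 after TCTP siRNA, and the endothelial level 489 to 552 and 448 to 469. The fibroblast, leukocyte and endothelial sums include the undetected probes. The detected leukocyte marker was CD68 (log2 change 0.095, adjusted p = 0.726 from limma). The detected endothelial marker was VWF (log2 change -0.299, adjusted p = 0.166 from limma). The part of these markers in the results was not tested.

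The cytosolic sensors RIGI and IFIH1 and the related helicase DDX60 were lower after TCTP siRNA, whereas the adaptor MAVS and the kinase TBK1 downstream of them passed the test in neither direction. Directions follow the sample labels, and the study words the direction of interferon-induced genes the other way in its headings, though not in its plots. Of the 7 genes that could be tested, 3 were called lower at an adjusted p under 0.05 (IFIH1, DDX60 and RIGI) and 0 higher. Over all 8968 genes 1.52% were called lower and 1.04% higher. The 3 genes are 42.9% of the tested 7. RIGI and DDX60 passed the detection filter through the Luc siRNA arrays, where they are high, so the count describes the 7 genes and supports no statement on all 9. In 4 of the 7 genes (the same 3 and EIF2AK2) every TCTP siRNA array was below every Luc siRNA array, compared with 10.8% of all genes, and in 0 of the 7 was it the other way, compared with 10.4%. At an unadjusted p under 0.05, 4 genes were lower and 0 higher, where the shares over all genes were 8.05% and 7.59%. In bulk RNA such as this, fewer cells with the transcript and less transcript per cell cannot be told apart.

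**Figure D1:**
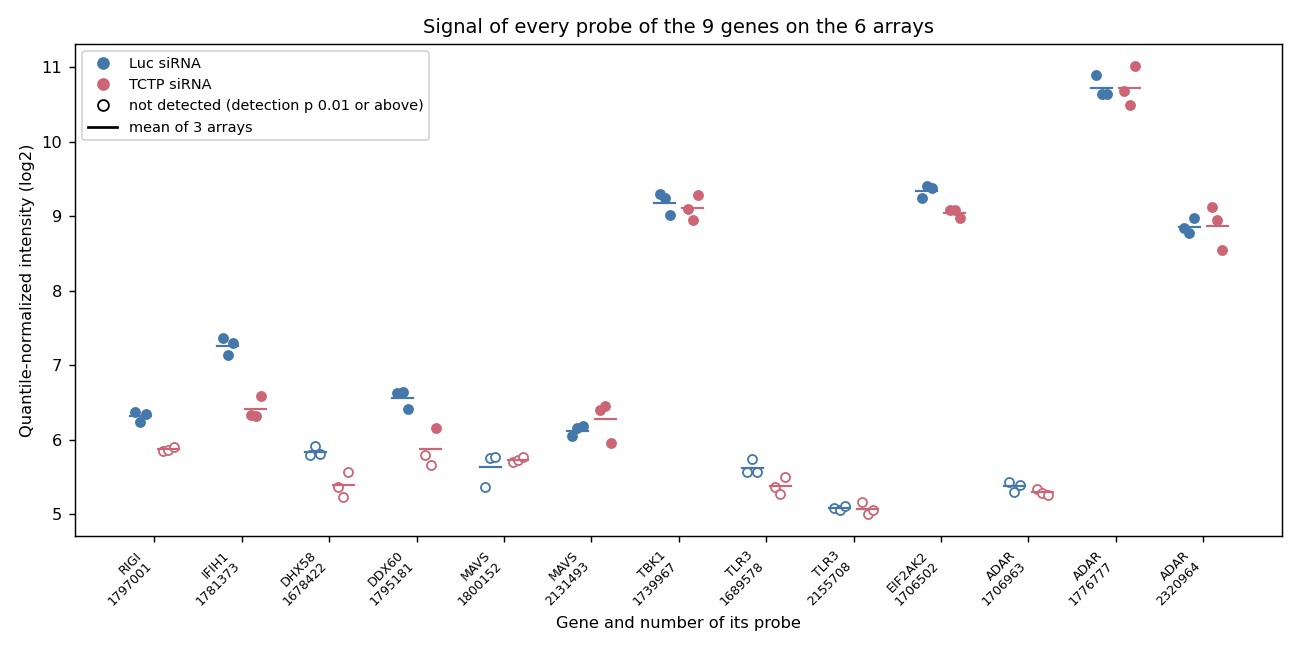
Quantile-normalized log2 intensity of each of the 13 probes of the 9 genes on the 3 Luc siRNA arrays (blue) and the 3 TCTP siRNA arrays (red), with open circles for arrays on which the probe was not detected and lines for the mean of 3 arrays. The groups stand apart for RIGI, IFIH1, DHX58, DDX60, EIF2AK2 and 1 TLR3 probe, and overlap for the other probes; levels of different probes are not comparable.

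IFIH1, which encodes MDA5, had the largest fitted change of the 7 tested genes, of which RIGI has only a bound. Its probe ILMN_1781373 gave log2 signals of 7.36, 7.14 and 7.29 after Luc siRNA and 6.33, 6.31 and 6.59 after TCTP siRNA. All 6 arrays detected the probe, and the highest TCTP siRNA array, replicate 3, lay 0.56 log2 units below the lowest Luc siRNA array. The group means were, in that order, 7.26 ± 0.11 (SD, n = 3) and 6.41 ± 0.16 (SD, n = 3), a log2 change of -0.86 (standard error 0.11, 95% interval from -1.1 to -0.62), which leaves 55.2% of the control signal (adjusted p = 0.00102 from limma). IFIH1 had rank 27 among all tested genes by size of fall and rank 29 by p. The deposited intensities before normalization, 184, 144 and 146 against 76.9, 69.4 and 105, were also apart. The call held in each of 19 alternative settings, with adjusted p-values of 0.000294 to 0.0233 from limma.

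DDX60, a helicase of the same superfamily that has been described as a cofactor of RIG-I-like receptors, was the next in size of change. The log2 signals of its probe ILMN_1795181 were 6.62, 6.64 and 6.41 after Luc siRNA and 5.79, 5.66 and 6.15 after TCTP siRNA. The probe was detected on all Luc siRNA arrays but only on replicate 3 of TCTP siRNA, which came within 0.26 of the lowest control array. Group means of DDX60 were 6.56 ± 0.13 (SD, n = 3) and 5.87 ± 0.25 (SD, n = 3), and the log2 change was -0.69 (standard error 0.13, 95% interval -0.97 to -0.41), or 61.9% of the control signal (adjusted p = 0.0131 from limma). The call was lost without Luc siRNA replicate 1 (adjusted p = 0.059), Luc siRNA replicate 2 (0.0721) or TCTP siRNA replicate 1 (0.0884), and with median scaling (0.133), all from limma. The change stayed negative in each of these.

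RIGI, which encodes RIG-I, showed a smaller difference near the detection limit. Its probe ILMN_1797001 gave log2 signals of 6.37, 6.24 and 6.34 after Luc siRNA and 5.84, 5.86 and 5.90 after TCTP siRNA. The TCTP siRNA arrays lay close together, 0.33 below the lowest Luc siRNA array, and none detected the probe (detection p of 0.0119, 0.0119 and 0.0105 against 0.00395, 0.00395 and 0.00264 in the controls). RIGI is therefore given as a bound, at least 1.26-fold lower, from the control mean and, for each TCTP siRNA array, the higher of the probe's own signal and the lowest signal of any detected probe. RIGI averaged 6.32 ± 0.07 (SD, n = 3) and 5.87 ± 0.03 (SD, n = 3) as measured, and limma fitted a log2 change of -0.45 (standard error 0.10, 95% interval -0.65 to -0.24, adjusted p = 0.0292). The RIGI call was lost without any 1 of Luc siRNA replicate 1 (adjusted p = 0.116), replicate 2 (0.0817) or replicate 3 (0.123), or TCTP siRNA replicate 1 (0.12), and with median scaling (0.139), all from limma. It was also lost with the replicate number as a block (adjusted p = 0.0922 from limma), although these numbers did not pair the samples.

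DHX58 encodes LGP2, a RIG-I-like receptor that lacks the signalling domain of RIG-I and MDA5 and modulates them. Its probe ILMN_1678422 was detected on no array, with log2 signals of 5.79, 5.91 and 5.80 after Luc siRNA and 5.36, 5.23 and 5.56 after TCTP siRNA. The groups were apart by 0.23, although each value was below the lowest detected signal of its own array (log2 5.91 to 6.09 over the arrays). DHX58 was therefore not in the test and no fold is given. With probes detected at p under 0.05 on at least 3 arrays, DHX58 had an adjusted p of 0.0494 over 10913 genes, and with no filter 0.0409 over 18665 genes, both from limma. It reached the looser filter through the Luc siRNA arrays, where it is high. Its detection p was 0.0171, 0.0132 and 0.0171 there and 0.1, 0.179 and 0.0343 after TCTP siRNA. These p-values are therefore a description and add no call.

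**Figure D2:**
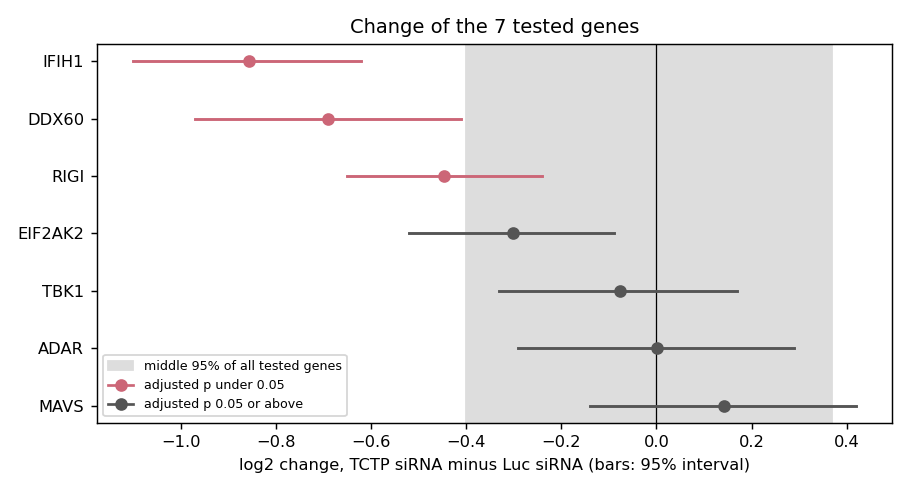
Log2 change (TCTP siRNA minus Luc siRNA, limma) of the 7 tested genes, each with its 95% interval, over a grey band from -0.4 to 0.37 that holds the middle 95% of the changes of all tested genes. The points of IFIH1 and DDX60 lie beyond the band's lower edge. The fitted point of RIGI does too, but no TCTP siRNA array detected RIGI, and its bound is at least 1.26-fold lower. The intervals of TBK1, ADAR and MAVS include 0.

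TLR3, the endosomal sensor, was also below the filter on both of its probes. Probe ILMN_1689578 gave log2 signals of 5.57, 5.74 and 5.56 after Luc siRNA and 5.36, 5.27 and 5.50 after TCTP siRNA. These TLR3 values did not overlap, with a gap of 0.07, and the adjusted p was 0.275 with probes detected at p under 0.05 and 0.326 with no filter, both from limma. The other probe, ILMN_2155708, stayed at or under 5.16 on all 6 arrays, with detection p-values of 0.332 to 0.642.

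The adaptor MAVS was measured by a detected probe and by one that did not pass the filter. On the detected probe ILMN_2131493 the log2 signals were 6.05, 6.15 and 6.18 after Luc siRNA and 6.40, 6.45 and 5.95 after TCTP siRNA. Replicates 1 and 2 of TCTP siRNA were above the controls and replicate 3 was below them. The log2 change of MAVS was 0.14 (standard error 0.13, 95% interval -0.14 to 0.42, adjusted p = 0.651 from limma). The second MAVS probe, ILMN_1800152, ranged from 5.36 to 5.77.

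TBK1, the kinase that MAVS and TLR3 signalling share, gave log2 signals of 9.29, 9.24 and 9.02 after Luc siRNA and 9.09, 8.95 and 9.28 after TCTP siRNA on probe ILMN_1739967. The groups overlapped across almost their whole range. The log2 change of TBK1 was -0.08 (standard error 0.12, 95% interval -0.33 to 0.17, adjusted p = 0.799 from limma).

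EIF2AK2, the gene of PKR, had a smaller difference, with groups that stood apart. Its probe ILMN_1706502 gave log2 signals of 9.24, 9.41 and 9.38 after Luc siRNA and 9.08, 9.08 and 8.97 after TCTP siRNA. All 3 TCTP siRNA arrays were lower, with a gap of 0.16 between the groups, and all 6 arrays detected the probe. Group means of EIF2AK2 were 9.34 ± 0.09 (SD, n = 3) and 9.04 ± 0.06 (SD, n = 3), and the log2 change of -0.30 (standard error 0.10, 95% interval -0.52 to -0.09), or 81.1% of the control signal, did not pass the test (adjusted p = 0.141 from limma). Over the alternative settings the adjusted p of EIF2AK2 was 0.125 to 0.5.

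ADAR, the editing enzyme, was bright on a pair of kept probes. Probe ILMN_1776777 gave log2 signals of 10.89, 10.64 and 10.64 after Luc siRNA and 10.68, 10.49 and 11.01 after TCTP siRNA. Probe ILMN_2320964 gave 8.84, 8.77 and 8.98 after Luc siRNA and 9.12, 8.95 and 8.55 after TCTP siRNA. TCTP siRNA replicate 3 was the highest of the 6 arrays on the former and the lowest on the latter. The log2 changes of ADAR were 0.00 (standard error 0.13, 95% interval -0.29 to 0.29, adjusted p = 0.997 from limma) and 0.01 (standard error 0.14, adjusted p = 0.984 in the limma fit of every kept probe). The changes of the probes differed by 0.01 (two-sided exact permutation test, p = 1, where 0.1 is the smallest that 3 arrays against 3 allow). The remaining ADAR probe, ILMN_1706963, ranged from 5.25 to 5.43 and was not detected.

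TCTP siRNA replicate 3 was the highest of its group on 8 of the 13 probes, among them those of RIGI, IFIH1, DDX60 and DHX58. The 8 include probes of DHX58, MAVS and TLR3 that no array detected. Over all tested genes, also with 1 probe each, TCTP siRNA replicate 3 was the highest of its group in 35.7%. It was the lowest of its group on EIF2AK2 and on the detected MAVS probe. Without it the log2 change of IFIH1 was -0.94 and that of DDX60 was -0.82, compared with -0.86 and -0.69 with all arrays.

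**Figure D3:**
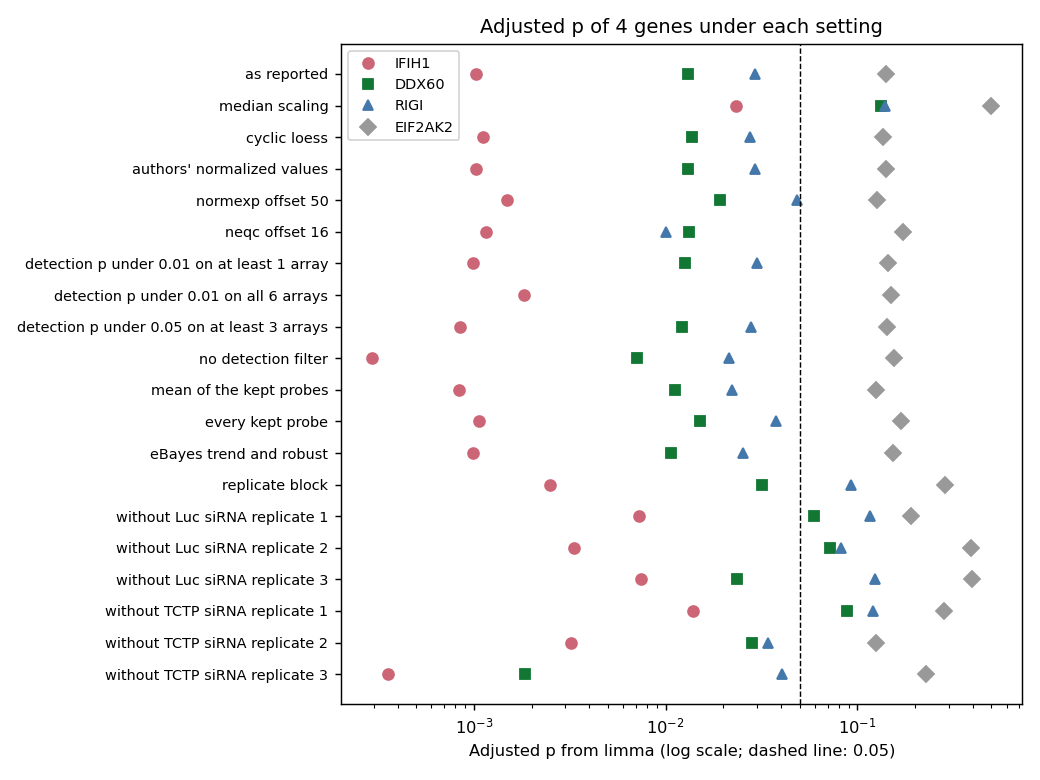
Adjusted p from limma (log axis, dashed line at 0.05) of IFIH1, DDX60, RIGI and EIF2AK2 as reported and under each alternative setting; a missing point means that the gene was not tested there. IFIH1 is left of the line throughout and EIF2AK2 right of it, while DDX60 and RIGI cross it.

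The surrounding pathways were described from 7 lists of other genes, in which 112 genes were tested, 4 were called lower and 0 higher, against 1.52% and 1.04% of all genes. The median log2 change over the lists was 0.02, compared with -0.30 over the 7 tested sensors, adaptors and effectors and 0.00 over all genes. When detection on all 6 arrays was required, so that RIGI and DDX60 were not tested, the median of the remaining 5 was -0.08. The 4 lower genes were the 2'-5' oligoadenylate synthetases, which make the activator of RNase L on binding double-stranded RNA, and OASL, a relative without that activity that binds RIG-I. OAS3 was detected on all arrays, and limma gave it a log2 change of -0.86 ± 0.11 (standard error), with an adjusted p of 0.000881. OAS2 was at least 2.83-fold lower (adjusted p = 1.45e-08), OASL at least 4.20-fold (3.83e-07) and OAS1 at least 1.43-fold (2.31e-05), each detected on no TCTP siRNA array and called with limma. These 3 passed the filter through the Luc siRNA arrays, where they are high, and with detection required on all 6 arrays 1 of the 4, OAS3, was left in the test and called. Without these 4 genes the lists held 108 tested genes, of which 0 were called in either direction by limma (6 lower and 4 higher at an unadjusted p under 0.05, which as shares are below the 8.05% and 7.59% of all genes), with changes from -0.45 to 0.35.

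Each of the other 6 lists had 0 calls in either direction with limma. The 13 other helicases linked to RNA sensing ranged from -0.18 to 0.13, with 0 at an unadjusted p under 0.05. Among the 21 ubiquitin and phosphatase regulators of RIG-I and MDA5, ZCCHC3, a cofactor of RIG-I and MDA5, had a log2 change of 0.35 (adjusted p = 0.114 from limma). Among the 17 MAVS partners, TOMM70, the mitochondrial import receptor that binds MAVS, had -0.45 (adjusted p = 0.0566 from limma). Of the alternative settings, limma called TOMM70 lower with no detection filter (0.0487), with the mean of kept probes (0.0478) and with a trended, robust variance model (0.0468). The other settings did not call it, with an adjusted p of up to 0.408 (median scaling, limma). RNF5 of the same list had 0.24 (adjusted p = 0.305 from limma). In the TBK1 and IKK list of 16 genes, the adaptor OPTN had 0.31 (adjusted p = 0.177) and CALCOCO2 -0.26 (adjusted p = 0.208 from limma). The TLR3 pathway, with 11 genes, held its adaptor TICAM1 at 0.16 (adjusted p = 0.51 from limma). In the PKR list of 17 genes, TARBP2, an inhibitor of PKR, had -0.23 (adjusted p = 0.295) and EIF2S2, the beta subunit of eIF2, -0.23 (adjusted p = 0.276 from limma).

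**Figure D4:**
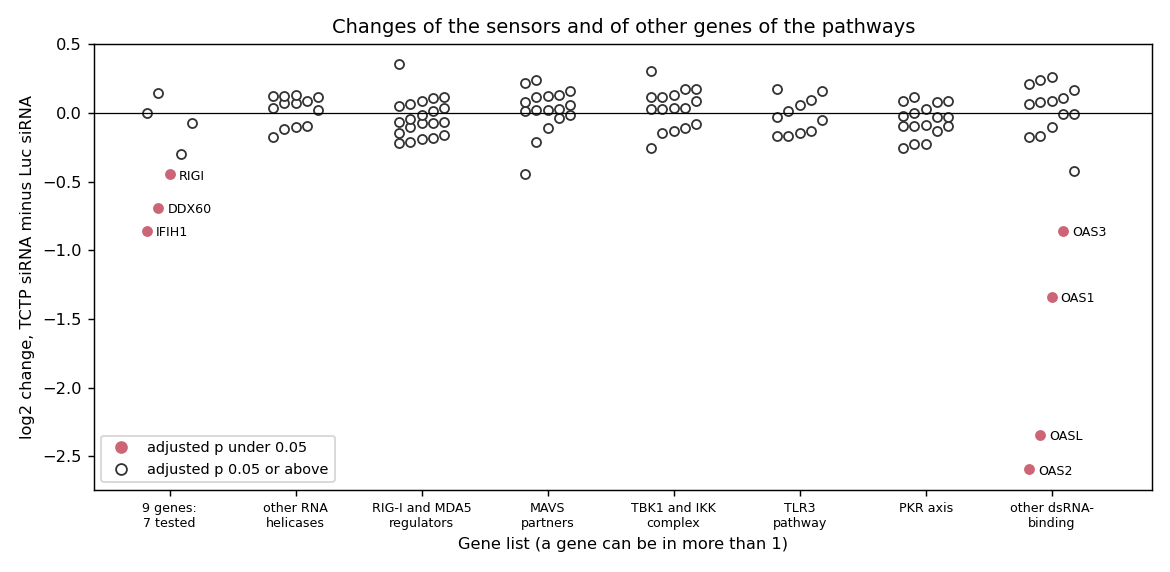
Log2 change (TCTP siRNA minus Luc siRNA) of each tested gene by list, with filled points at an adjusted p under 0.05 and open points otherwise. Below -0.5 lie IFIH1, DDX60 and the OAS genes, and the other lists stay between -0.45 and 0.35.

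The genes whose signals followed the 3 called sensors most closely over the 6 arrays were found by Pearson's r, as a description, since r over arrays of both groups contains the difference between the groups. For RIGI these were IFNAR1, a chain of the type I interferon receptor (r = 0.9952), HACL2 (r = 0.995) and XAF1, an interferon-inducible gene (r = 0.9915). IFNAR1 had a log2 change of -0.31 (adjusted p = 0.114 from limma), and XAF1 was lower by at least 1.14-fold (limma, adjusted p = 6.24e-06). For IFIH1 they were CGNL1 (r = 0.9956), STRC (r = 0.9938) and RIN2 (r = 0.9934), of which RIN2 was called lower (log2 change -0.57, adjusted p = 0.00964 from limma). For DDX60 they were TFDP1 (r = 0.99), ZNF559 (r = 0.9872) and ZNHIT6 (r = 0.9838), none of them called by limma. Values of r above 0.9 with RIGI, IFIH1 and DDX60 were reached by 3.06%, 3.15% and 2.82% of the other tested genes.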

How the data were processed

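The authors deposited, for each of the 6 arrays, BeadStudio summary intensities that were not normalized and the detection p-value of each of 48803 probes. They also deposited quantile-normalized intensities, which differed from those computed here by at most 0.029 log2 units. No BeadStudio version was found in the sources read. No background was subtracted, which compresses changes of dim probes, and the number of arrays limits the precision.

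Intensities were quantile-normalized and log2-transformed with limma 3.58.1 in R 4.3.3. Symbols came from the platform annotation, updated by gene identifier through RefSeq (GRCh38.p14); 27578 probes had 1 symbol, 13 several and 21212 none. Kept probes had a detection p below 0.01 on 3 or more arrays, and the brightest kept probe by mean signal represented a gene. Groups were compared with lmFit and eBayes, with Benjamini-Hochberg adjustment over 8968 genes. The code was tested on simulated data.

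The genes and lists were chosen with earlier results of these data known. Named genes are the 9 with every probe, TPT1, from each pathway list up to 4 called genes with the largest change or, with none called, up to 2 with the smallest p, and the 3 genes most correlated with each called gene; markers are given as lists. Of the list genes, 137 of 147 had a probe. No array batch or scan date was found in the labels or headers. The alternatives were other normalizations, background corrections, detection filters, probe summaries, variance models and thresholds, a replicate block and each replicate left out. Python 3.11.15 with matplotlib 3.10.9 drew the figures.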

Additional observations from a re-analysis of the deposited data

How the results depend on the processing

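IFIH1 kept its direction and its call in all 19 settings, with log2 changes of -0.939 to -0.811 when 1 array was left out. With median scaling RIGI (log2 change -0.442, adjusted p = 0.139 from limma) and DDX60 (-0.67, adjusted p = 0.133) lost their calls. This left 1 of the 7 tested genes called lower. That scaling called 35 genes lower and 17 higher over all genes, compared with 136 and 93. Detection on all 6 arrays also left 1 gene called lower, because RIGI and DDX60 were then not tested, and so did an adjusted p under 0.01. With 1 array left out, the log2 change ranged from -0.484 to -0.421 for RIGI and from -0.822 to -0.596 for DDX60. In these fits 1 to 3 of the 7 tested genes were called lower, and over all genes 53 to 170 were lower and 30 to 145 higher. The number called higher was 0 in every setting. ADAR changed sign with cyclic loess (-0.004) and, with 1 array left out, ranged from -0.141 to 0.119, being negative without Luc siRNA replicate 2 (-0.041), Luc siRNA replicate 3 (-0.041) or TCTP siRNA replicate 3 (-0.141). TBK1 ranged from -0.162 to 0.002, the latter without TCTP siRNA replicate 2. The cause of these differences was not tested, other than for the filter. The replicate numbers did not pair the samples, since the deviations of same-numbered arrays from their group means correlated at -0.071, -0.058 and -0.396. Arrays of different numbers reached 0.489 (Luc siRNA replicate 3 with TCTP siRNA replicate 2), 0.438 (1 with 3) and 0.253 (2 with 1). Whether these arrays shared a batch was not tested, and no fit paired them. With the replicate number as a block, RIGI (log2 change -0.446, adjusted p = 0.0922 from limma) lost its call. That fit called 2 of the 7 tested genes lower, and 73 genes were lower and 45 higher over all genes. Signals of RIGI, DDX60, DHX58, TLR3 and MAVS near the detection limit leave their changes least well measured.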
